A study of Mus musculus with 9 samples.

Results

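Negative feedback regulators of the RAS-ERK pathway, encoded by 10 genes, were examined in MYCN-driven mouse T cell lymphoma and in control CD4 T cells. They were chosen by name and comprise 6 dual-specificity phosphatases (Dusp1, Dusp2, Dusp4, Dusp5, Dusp6 and Dusp10), the Sprouty genes Spry1 and Spry2, and the Sprouty-related genes Spred1 and Spred2. All 10 symbols were found in the deposited count table, among 46078 genes, and all 10 passed the filter on low counts, as did 15401 genes in all. RNA was sequenced from transcript 3′ ends in 6 lymphoma libraries (numbered 34, 53, 56, 70, 72 and 86 in their labels), made from lymphoma cells of the thymus with MYCN as the inducing oncogene, and in 3 control libraries (CD4 1, 2 and 3), made from CD4+ T cells of the spleen. All samples were of the C57BL/6J strain. The promoter that drives MYCN, the age and sex of the animals and the way the CD4 T cells were purified are not given in the sources used here, nor is it said whether the lymphomas arose independently. The p-values therefore measure the spread between these libraries, which may in part be technical. Tissue and group coincided, so they cannot be told apart.

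In this pathway a stimulus such as T cell receptor engagement loads RAS with GTP, and RAS activates the kinases RAF, MEK and ERK in turn. ERK phosphorylates transcription factors, and among the genes it induces are its own inhibitors. Dual-specificity phosphatases remove phosphate from both the threonine and the tyrosine of the activation loop of mitogen-activated protein kinases, while Sprouty and SPRED proteins act further upstream at the level of RAS and RAF. In T cells these transcripts are commonly read as a record of recent signalling, and they are also used to limit the response of developing thymocytes and mature T cells.

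Promoter sequences are shown first for Dusp1, Dusp6 and Spry2, which differed between the groups, for Dusp5 and Spry1, which turned on single libraries, and for Dusp2, whose level was close in both groups. Each stretch covers 150 bases, from position -200 to -51 relative to the annotated transcript start, 5′ to 3′ on the strand of the gene, taken from RefSeq (build GRCm38.p6). The table of promoters matched 9 of the 10 genes by symbol, Dusp4 being the other. Capitals mark matches to the motifs named in the next paragraph.
Dusp1 (chr17:26508523-26508672, minus strand): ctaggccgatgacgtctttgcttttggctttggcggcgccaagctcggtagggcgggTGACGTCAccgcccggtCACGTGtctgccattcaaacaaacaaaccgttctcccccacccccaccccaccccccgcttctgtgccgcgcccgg
Dusp2 (chr2:127335959-127336108, plus strand): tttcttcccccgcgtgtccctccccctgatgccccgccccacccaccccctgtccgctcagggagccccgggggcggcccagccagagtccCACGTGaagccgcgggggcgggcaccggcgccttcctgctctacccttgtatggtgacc
Dusp5 (chr19:53528945-53529094, plus strand): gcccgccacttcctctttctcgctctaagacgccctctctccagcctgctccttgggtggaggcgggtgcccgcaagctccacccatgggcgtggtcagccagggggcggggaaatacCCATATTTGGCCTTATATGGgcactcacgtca
Dusp6 (chr10:99263031-99263180, plus strand): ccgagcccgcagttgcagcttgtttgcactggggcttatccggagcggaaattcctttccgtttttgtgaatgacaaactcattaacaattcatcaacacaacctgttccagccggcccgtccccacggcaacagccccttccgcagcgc
Spry1 (chr3:37639747-37639896, plus strand): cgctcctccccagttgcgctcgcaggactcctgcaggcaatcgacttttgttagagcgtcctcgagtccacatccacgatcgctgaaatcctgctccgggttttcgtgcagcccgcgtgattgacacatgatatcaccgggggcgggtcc
Spry2 (chr14:105896870-105897019, minus strand): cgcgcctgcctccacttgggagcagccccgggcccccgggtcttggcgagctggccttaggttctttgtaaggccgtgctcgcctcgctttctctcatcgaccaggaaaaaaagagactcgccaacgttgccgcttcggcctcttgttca

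The motifs were searched on both strands in the 250 bases before the start. Dusp5 held 2 CArG boxes, the element bound by serum response factor, side by side at -82 to -73 and -72 to -63. A CArG box occurred in 1.47% of the 32851 windows of the table and in 1 of the 9 member windows. Dusp1 held the cAMP response element TGACGTCA at -143 to -136 (1.55% of all windows) and the E-box CACGTG, a motif that MYC family proteins can bind, at -126 to -121. Dusp2 held the E-box at -109 to -104. The E-box was present in 6.02% of all windows and in 2 of the 9 member windows. The ETS motif CCGGAA (12.0% of all windows) and the TATA box TATAAA (12.4%) were found in 0 of the 9. Only the full string CCGGAA was searched, and the shorter GGAA was not. The printed Dusp5, Dusp6 and Spry2 stretches hold GGAA, and the Dusp2 stretch holds it on the other strand. Dusp6, Spry1 and Spry2 thus held no match to the 5 motifs as searched in this window. These matches are descriptions of sequence and were not tied to binding data.

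Across the libraries, reads counted in genes ranged from 11170704 to 15769679 in lymphoma and from 8099960 to 10808828 in CD4. The T cell marker Cd3d stood at 386 to 512 CPM (counts per 1000000 counts in genes, after scaling) in lymphoma and 420 to 454 CPM in CD4. The 10 listed T cell markers summed to 1854 to 3535 CPM in lymphoma and 2628 to 2692 CPM in CD4, and not all were level. Cd2 stood at 98.8 to 279 CPM in lymphoma and 289 to 309 CPM in CD4. Thy1 lay the other way, at 501 to 1535 CPM and 378 to 462 CPM. Cd4 itself stood at 6.04 to 71.9 CPM in lymphoma and 199 to 263 CPM in CD4. The 10 B cell markers summed to 6.85 to 13.4 CPM in lymphoma and 1254 to 1514 CPM in CD4, and none of them was at 0 in all libraries of a group. The 10 myeloid markers summed to 69.0 to 2172 CPM and 796 to 1015 CPM, the 10 stromal and endothelial markers to 102 to 201 CPM and 226 to 257 CPM (42.7 to 120.0 CPM and 39.4 to 58.2 CPM without Pecam1, which carried most of the CD4 sum), and the 5 erythroid markers to 13.3 to 46.7 CPM and 1.10 to 3.63 CPM. Of these defining markers Cdh5 was at 0 counts in every lymphoma and Dcn at 0 in every CD4 library. The libraries labelled CD4 also held the CD8 genes, with Cd8a at 25.6 to 31.8 CPM and Cd8b1 at 35.9 to 44.9 CPM. Lymphoma 53 stood apart from the other lymphomas: it had 29.4 CPM of Cd8a and 47.6 CPM of Cd8b1, where the others reached at most 1.53 and 0.735 CPM, and over all tested genes its r with them was 0.884 to 0.900, against 0.939 to 0.980 among the others. The mouse Mycn gene had 0 to 3 counts in lymphoma and 0 to 6 in CD4, so it did not check the labels. Below, a change is one with an adjusted p under 0.05 in edgeR's quasi-likelihood test, adjusted by Benjamini and Hochberg's method over all 15401 genes, and log2 fold changes are lymphoma minus CD4.

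Dusp1, Dusp4 and Dusp6 fell in lymphoma, Spry2 rose, and the other 6 genes did not pass the test. Thus 4 of 10 changed, beside 46.6% of all tested genes. In the same test 1 of 10 was higher, beside 24.7% of all genes, and 3 of 10 were lower, beside 21.9%. The groups did not overlap for the same 4 genes, beside 44.9% of all tested genes (1 higher beside 22.6%, and 3 lower beside 22.3%). The share of members that changed was therefore close to that of the whole table. The median log2 fold change was -0.76 over the 10 genes and 0.04 over all tested genes. In a fit without CD4 3, 2 of the 10 genes were higher (Spry1 and Spry2) and 2 were lower (Dusp1 and Dusp6), beside 37.2% of all genes tested in that fit (20.1% higher and 17.2% lower). Without lymphoma 53, 2 were higher (Spry1 and Spry2) and 3 lower, beside 53.6% of all genes in that fit (27.7% higher and 25.9% lower).

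**Figure D1:**
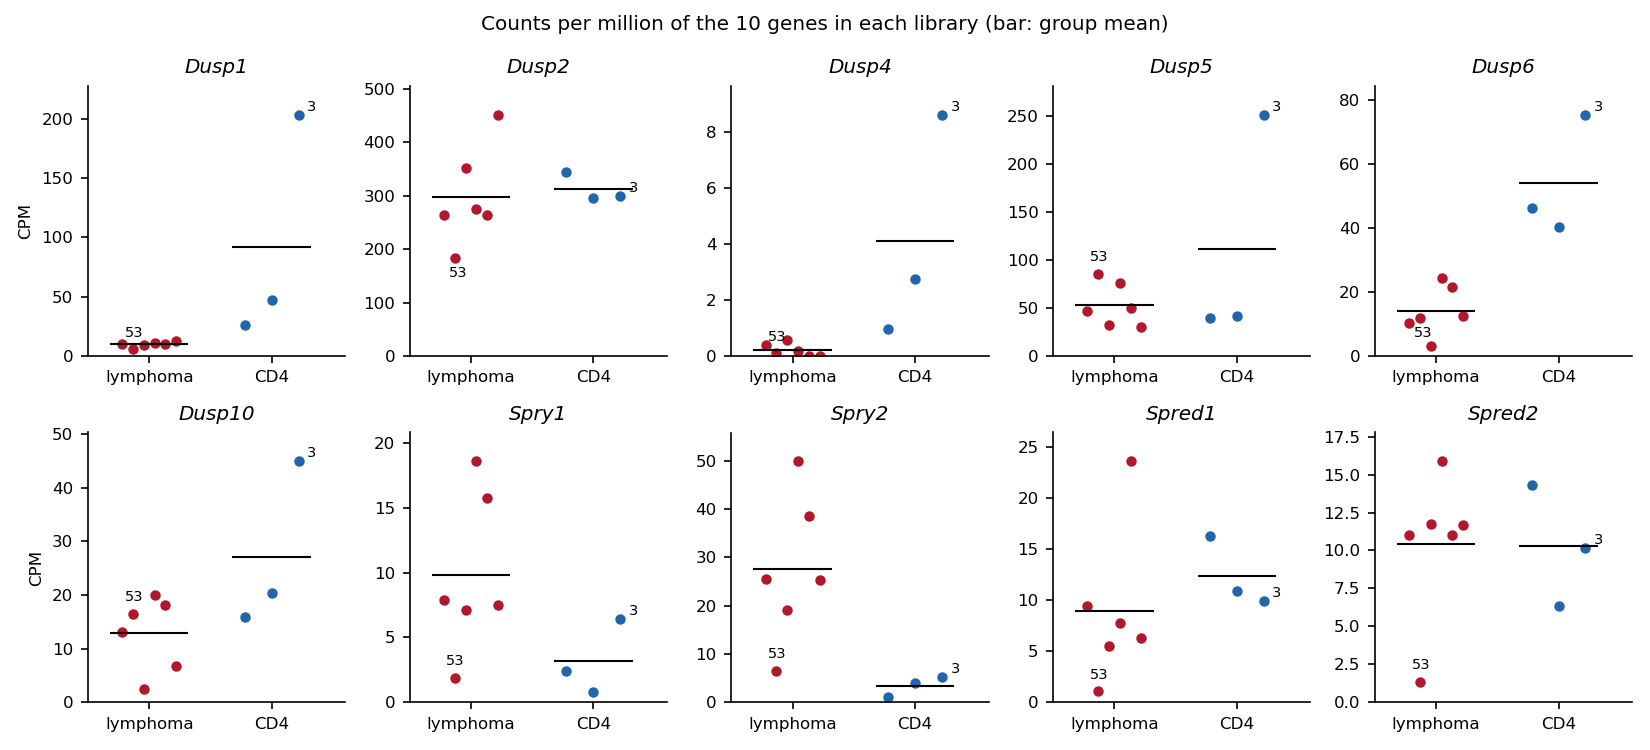
CPM (linear axes from 0) of each gene in the 6 lymphoma (red) and 3 CD4 (blue) libraries, with the group mean as a bar and CD4 3 and lymphoma 53 numbered. Groups are apart for Dusp1, Dusp4, Dusp6 and Spry2, and CD4 3 is the highest CD4 library for 7 of the 10 genes.

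Dusp6 (ENSMUSG00000019960, chr10:99263231-99267489) encodes the cytoplasmic phosphatase that is selective for ERK, and it is a widely used transcript of ERK output. Its level was lowest at 3.06 CPM in lymphoma 56, had a median of 12.0 CPM and reached 24.4 CPM in lymphoma 70. In CD4 1, 2 and 3 it stood at 46.3, 40.3 and 75.2 CPM. Every lymphoma lay below every CD4 library, and even the highest lymphoma had less than the lowest control. Its log2 fold change was -1.96 (SE 0.47, 95% interval -2.997 to -0.91, edgeR adjusted p 0.00585), or 3.88-fold lower in lymphoma. It was -1.63 without CD4 3. With CD4 3 and lymphoma 53 both left out, a choice made after seeing the data, it was -1.58 and the edgeR adjusted p was 0.0595.

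The phosphatases of the nucleus were not uniform. Dusp1 (ENSMUSG00000024190, chr17:26505590-26562128), an immediate early gene whose product acts on p38 and JNK as well as ERK, ranged from 5.66 CPM in lymphoma 53 through a median of 10.1 to 12.9 CPM in lymphoma 86. The CD4 libraries held 25.8, 47.0 and 203 CPM. The lymphomas lay close together and all below CD4, while CD4 3 was far above the other 2 controls. The log2 fold change of Dusp1 was -3.22 (SE 0.52, 95% interval -4.36 to -2.08, edgeR adjusted p 0.000538), or 9.32-fold lower. Without CD4 3 the change of Dusp1 was -1.87 and still passed the test, so the size of the fall depended on that library. Exons of Ergic1 overlap those of Dusp1 on the opposite strand, and Ergic1 had 687 to 1349 counts in lymphoma and 136 to 276 in CD4. The strand setting of the counting is not given in the sources used here, so the part of this overlap was not tested.

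Dusp4 (ENSMUSG00000031530, chr8:34807297-34819894), another nuclear phosphatase that is induced by ERK, was close to the limit of detection in lymphoma. It was counted 6, 1, 8, 3, 0 and 0 times in lymphomas 34, 53, 56, 70, 72 and 86. The controls CD4 1, 2 and 3 gave 10, 23 and 94 counts. On the CPM scale this was 0 to 0.582 in lymphoma and 0.954, 2.76 and 8.62 in CD4. A count of 0 allows up to 3 counts, or 0.196 CPM in lymphoma 72 and 0.217 CPM in lymphoma 86. The fitted log2 fold change was -4.24 (SE 1.05, 95% interval -6.53 to -1.96, edgeR adjusted p 0.00584). Without CD4 3 it was -3.08 with an edgeR adjusted p of 0.0740, so the call rested on that library.

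Dusp5 (ENSMUSG00000034765, chr19:53529109-53542431) encodes a nuclear phosphatase that is selective for ERK and that can hold it in the nucleus. Lymphomas ranged from 30.1 CPM in lymphoma 86 through a median of 48.4 to 85.7 CPM in lymphoma 53, and CD4 1, 2 and 3 had 39.9, 41.9 and 252 CPM. CD4 1 and 2 lay within the range of the lymphomas, and CD4 3 lay above all other libraries. For Dusp5 the log2 fold change was -1.05 (SE 0.58, 95% interval -2.34 to 0.23, edgeR adjusted p 0.163). Without CD4 3 it was 0.40 (edgeR adjusted p 0.453), so the sign turned on that library. An antisense gene, AC137853.2, overlaps exons of Dusp5 in the annotation.

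Dusp2 (ENSMUSG00000027368, chr2:127336159-127338376), a nuclear phosphatase that is abundant in lymphoid cells, ranged from 184 CPM in lymphoma 53 through a median of 269.5 to 451 CPM in lymphoma 86. CD4 1, 2 and 3 held 344, 296 and 299 CPM. The controls lay within the range of the lymphomas, and CD4 3 did not stand out. For Dusp2 the log2 fold change was -0.070 (SE 0.24, edgeR adjusted p 0.833), with a 95% interval from -0.58 to 0.44. That interval leaves out the 2-fold change in either direction, so the data bound the difference for Dusp2 more tightly than for any of the other 9 genes.

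Dusp10 (ENSMUSG00000039384, chr1:184013302-184075636) differs in substrate, as its product acts on JNK and p38 rather than on ERK. It ranged from 2.55 CPM in lymphoma 56 through a median of 14.8 to 19.97 CPM in lymphoma 70, beside 15.8, 20.3 and 44.9 CPM in CD4. Lymphomas 34, 56 and 86 lay below all controls and the others overlapped CD4 1 and 2. For Dusp10 the log2 fold change was -1.07 (SE 0.53, 95% interval -2.24 to 0.10, edgeR adjusted p 0.124), and -0.48 without CD4 3.

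**Figure D2:**
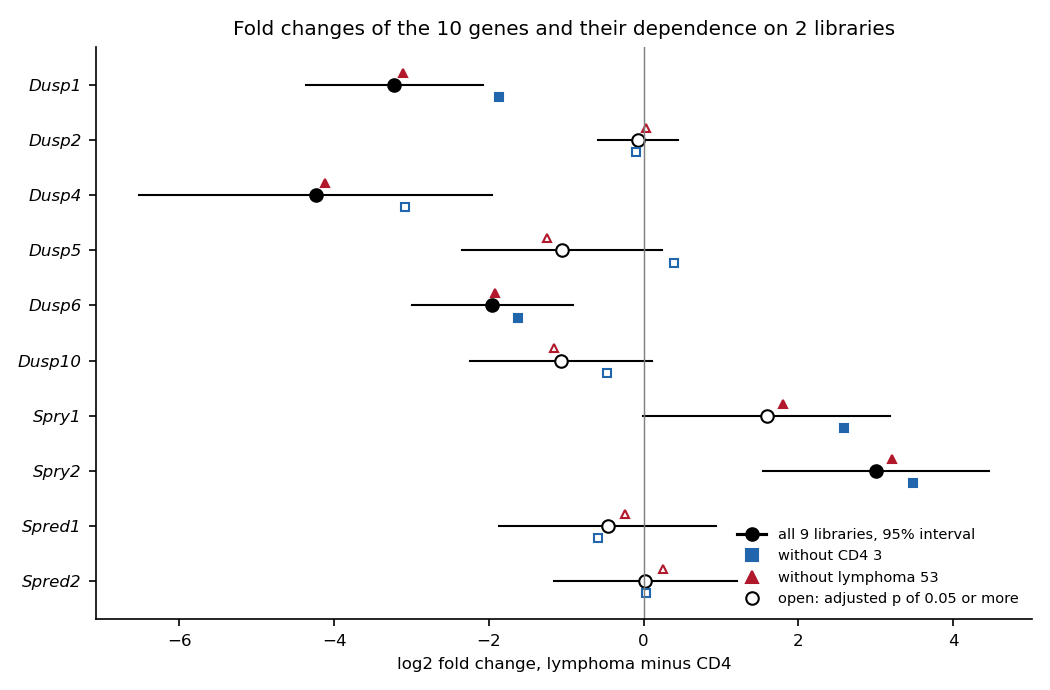
Log2 fold change, lymphoma minus CD4, of each gene with its 95% interval from all 9 libraries (circles), without CD4 3 (squares) and without lymphoma 53 (triangles), with open symbols where the adjusted p was 0.05 or more. Dusp1 moves from -3.22 to -1.87 and Dusp5 from -1.05 to 0.40 without CD4 3, while Spry1 goes from 1.59 to 2.59.

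Among the Sprouty genes, whose products restrain RAS and RAF activation downstream of receptors, Spry2 (ENSMUSG00000022114, chr14:105891947-105896819) rose in lymphoma. It had 6.58 CPM in lymphoma 53, a median of 25.5 CPM and 49.9 CPM in lymphoma 70. The CD4 libraries had 1.05, 3.96 and 5.23 CPM. All 6 lymphomas lay above all 3 controls, with lymphoma 53 only just above CD4 3. The log2 fold change of Spry2 was 3.01 (SE 0.67, 95% interval 1.55 to 4.47, edgeR adjusted p 0.00338), or 8.06-fold higher, and leaving out 1 library gave 2.601 to 3.49. In the edgeR fit of all 9 libraries it was the only one of the 10 genes to rise.

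Spry1 (ENSMUSG00000037211, chr3:37639947-37644598) had 1.92 CPM in lymphoma 53, a median of 7.69 CPM and 18.6 CPM in lymphoma 70, beside 2.39, 0.840 and 6.42 CPM in CD4. Of the 6 lymphomas, 5 exceeded all controls, and lymphoma 53 lay among them. For Spry1 the log2 fold change was 1.59 (SE 0.73, 95% interval -0.0018 to 3.19, edgeR adjusted p 0.0943). It was 1.80 without lymphoma 53 (edgeR adjusted p 0.0238) and 2.59 without CD4 3 (edgeR adjusted p 0.0338), and with DESeq2 on all 9 libraries it was 1.54 (DESeq2 adjusted p 0.0466). The call thus depended on either library and on the test used, and Spry1 passed in 4 of 19 alternatives. The antisense gene Gm42922 overlaps exons of Spry1 in the annotation.

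The SPRED genes encode membrane proteins that bring the RAS inactivator neurofibromin to RAS. Spred1 (ENSMUSG00000027351, chr2:117121374-117182279) ranged from 1.10 CPM in lymphoma 53 through a median of 7.03 to 23.6 CPM in lymphoma 72, beside 16.3, 10.9 and 9.91 CPM in CD4. Apart from lymphoma 72, which lay above all controls, the lymphomas lay below them. The log2 fold change of Spred1 was -0.46 (SE 0.64, 95% interval -1.87 to 0.94, edgeR adjusted p 0.587), and -1.04 without lymphoma 72. Spred2 (ENSMUSG00000045671, chr11:19924375-20024026) ranged from 1.37 CPM in lymphoma 53 through a median of 11.4 to 15.9 CPM in lymphoma 70, beside 14.3, 6.36 and 10.2 CPM in CD4. Apart from lymphomas 53 and 70, the lymphomas lay within the range of the controls. Its log2 fold change was 0.023 (SE 0.54, 95% interval -1.16 to 1.21, edgeR adjusted p 0.977), and 0.25 without lymphoma 53.

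In bulk samples fewer cells of a type and less RNA per cell cannot be told apart. For each of the 10 B cell markers given above the lowest control exceeded the highest lymphoma, as it did for Dusp1, Dusp4 and Dusp6, and the part of B cell RNA in these falls was not tested. Most markers of regulatory and activated CD4 T cells moved the same way. Of 8 listed, 6 fell, beside 21.9% of all tested genes, and 1, Pdcd1, rose, beside 24.7%. The 8 summed to 616 to 801 CPM in CD4 and 152 to 506 CPM in lymphoma. Pdcd1 stood at 2.67 to 7.34 CPM in CD4 and 49.8 to 257 CPM in lymphoma. In lymphoma 53, which had the highest sum of the lymphomas, Pdcd1 gave 257 CPM and Ikzf2 219 CPM. The part of cells with these markers in the falls was not tested either.

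The controls differed among themselves. CD4 3 was the highest CD4 library for 7 of the 10 genes, beside 31.99% of all tested genes, and was over 2-fold above the mean of CD4 1 and 2 for 6 of the 10 (Dusp1, Dusp4, Dusp5, Dusp10, Spry1 and Spry2), beside 8.40% of all tested genes. The ratio was 6.15 for Dusp5, 5.59 for Dusp1, 4.64 for Dusp4 and 3.98 for Spry1. It was 0.932 for Dusp2, 0.985 for Spred2 and 0.728 for Spred1, so the excess in CD4 3 was not shared by all the feedback genes. Among 12 tested transcripts that ERK is known to induce, 7 were over 2-fold higher in CD4 3, with ratios of 4.65 for Fos, 5.38 for Fosb, 3.48 for Junb and 4.16 for Nr4a1. Of the 10 B cell markers 0 were over 2-fold higher in CD4 3, with a median ratio of 0.836, and the part of cell content in the excess was not tested. These are single-library comparisons and carry no test.

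**Figure D3:**
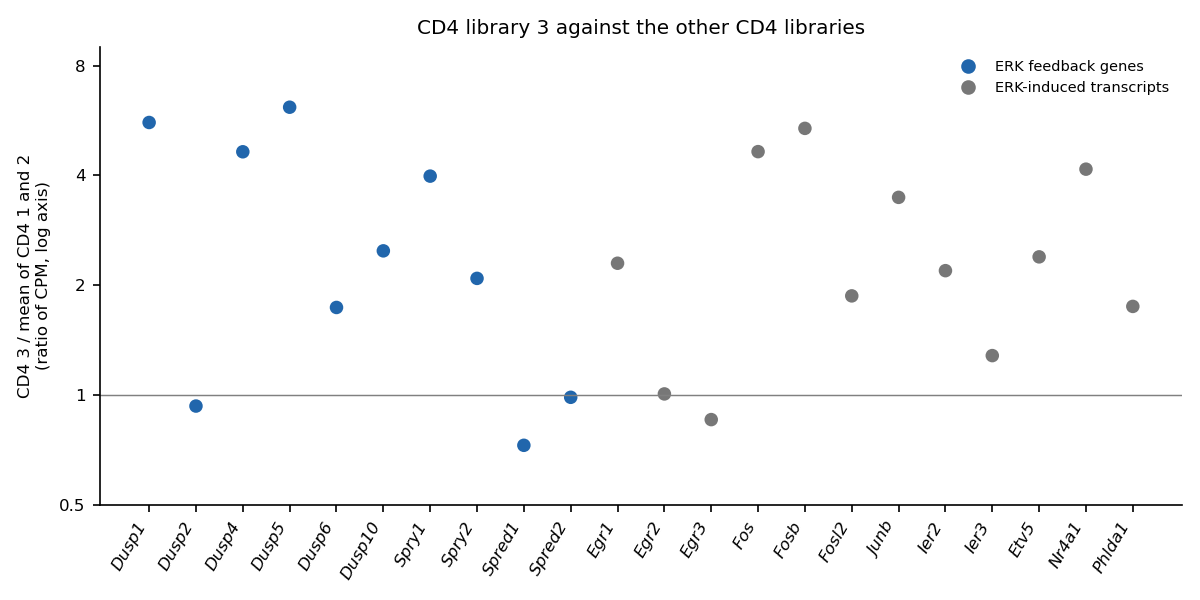
Ratio of CPM in CD4 3 to the mean of CD4 1 and 2 (log axis) for the 10 feedback genes (blue) and the 12 tested ERK-induced transcripts (grey), where 1 means no difference. Dusp1 and Dusp5 lie near the top with Fos and Fosb, while Dusp2, Spred1 and Spred2 lie just below 1.

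The lymphomas also differed among themselves. Within lymphoma, 8 of the 10 genes had an SD of log2 CPM above 0.47, the median of all tested genes. It was largest for Spred1 (1.38) and Spred2 (1.24), and smallest for Dusp1 (0.40) and Dusp2 (0.44). Lymphoma 53 was the lowest lymphoma for 6 of the 10 (Dusp1, Dusp2, Spry1, Spry2, Spred1 and Spred2), beside 33.3% of all tested genes, yet it was the highest for Dusp5. Lymphomas 70 and 72 were the highest pair for Dusp6, Dusp10, Spry1 and Spry2.

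Spry1 and Spry2 ranked the 6 lymphomas in the same order, namely 70, 72, 34, 86, 56 and 53. Their log2 CPM had a Pearson r of 0.990 and a Spearman rho of 1 over the 6 lymphomas and 0.962 over the 5 without lymphoma 53. The next pairs that did not rest on lymphoma 53 were Dusp6 with Dusp10 (r = 0.900, Spearman rho 0.829, and r = 0.935 without lymphoma 53) and, in the opposite sense, Dusp2 with Dusp5 (r = -0.879, rho -0.771, and r = -0.790 without it). Over all 45 pairs r ranged from -0.879 to 0.990 with a median of 0.172, so the 10 genes did not vary as 1 group. Without lymphoma 53 the median was 0.292. The number of pairs above 0 was 27 of 45 with and without it, but these were not the same pairs. Without lymphoma 53, Spred1 with Spred2 went from 0.813 to -0.309, and Dusp5 with Spry1 from -0.185 to 0.872. Over those 5 lymphomas Spry2 had an r of 0.914 with Dusp6, 0.887 with Dusp5 and 0.878 with Dusp10. Over all 6 lymphomas these values were 0.439, -0.213 and 0.168. Dusp2 and Dusp10 ran in opposite senses in both cases, with an r of -0.65 over all 6 lymphomas and -0.67 without lymphoma 53. Dusp2 with Spry2 went from 0.445 to -0.546 when lymphoma 53 was left out. Lymphomas 70 and 72 were also the most alike pair across all tested genes (r = 0.980), and their myeloid markers were the lowest, at 84.0 and 69.0 CPM against 190 to 2172 CPM in the others. The sum of the 14 listed ERK-induced transcripts was highest in the same pair, at 438 and 454 CPM, against 223 to 244 CPM in the other 4 lymphomas. Abundant transcripts weighed most in it, with Phlda1 at 114 and 116 CPM, Egr1 at 101 and 126 CPM and Nr4a1 at 89.7 and 101 CPM in that pair. Egr2, Egr3, Fosl2 and Ier2 were also highest in lymphoma 70. Fos and Fosb were highest in lymphoma 53, Junb and Etv5 in lymphoma 56 and Ier3 in lymphoma 34, so the set did not follow the pair as a whole. These correlations are descriptions over libraries that share tissue and tumour type, and the part of the myeloid content was not tested.

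**Figure D4:**
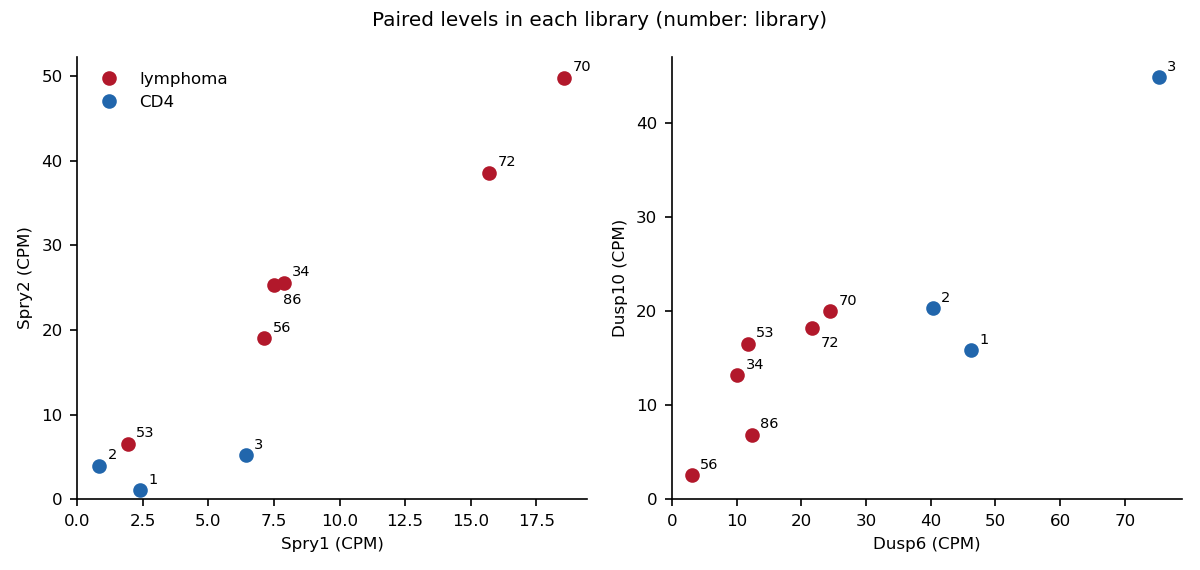
Spry2 against Spry1 (left) and Dusp10 against Dusp6 (right) in CPM, 1 point per library with its number, lymphoma in red and CD4 in blue. Lymphomas 70 and 72 are the highest lymphomas in both panels, and the CD4 libraries lie to the right of the lymphomas for Dusp6 and at the bottom for Spry2.

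The rest of the pathway was read from lists written from general knowledge, whose calls stand beside the 46.6% of all tested genes (24.7% higher and 21.9% lower). The lists were chosen with earlier results of these data known, so their shares are a description only. The share called was 33.3% of the other family genes, 50% of the RAS control list, 66.7% of the kinase cascade, 9.09% of the JNK and p38 kinases and 75% of the ERK-induced transcripts. Of 10 other phosphatase and Sprouty family genes, 6 were tested, 2 fell (Dusp7 and Dusp22) and 0 rose, with a median log2 fold change of -0.34. Dusp22, a phosphatase of the JNK and T cell receptor pathways, had 0 to 2.28 CPM in lymphoma and 4.68 to 10.8 CPM in CD4 (log2 fold change -3.97, SE 1.11, edgeR adjusted p 0.0121). The 4 untested genes were Dusp8, Dusp14, Spry3 and Spry4, whose counts were too low for the filter. Without CD4 3 the log2 fold change of Dusp22 was still -3.55, with an edgeR adjusted p of 0.0533. That of Dusp7 was -0.62 with all libraries and -0.47 without CD4 3 (edgeR adjusted p 0.139), and its call was lost in 8 of 20 alternatives.

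Upstream, all 16 listed genes that control RAS were tested. Of these, 7 fell (Rasgrp1, Rasgrp2, Rasgrp3, Nf1, Rasa1, Rasa3 and Rasal3) and 1 rose (Hras), with a median of -0.53. The largest fall was in Rasgrp3, a RAS activator that is prominent in B cells, from 28.1 to 43.6 CPM in CD4 to 0 to 0.873 CPM in lymphoma (log2 fold change -6.21, SE 0.51, edgeR adjusted p 2.79e-06). The B cell markers were higher in the same CD4 libraries, and the part of B cell RNA in the fall of Rasgrp3 was not tested. Rasgrp1, the RAS activator that acts below the T cell receptor, fell from 199 to 275 CPM to 43.6 to 92.5 CPM (log2 fold change -1.85, SE 0.24). Without CD4 3 the log2 fold change of Rasa3 went from -3.24 to -3.20 (edgeR adjusted p 0.0519) and that of Nf1 from -1.12 to -0.65 (edgeR adjusted p 0.287). The call of Nf1 was lost in 8 of 20 alternatives, among them those without lymphoma 34, 56 or 72. Hras, a RAS gene itself, stood at 12.0 to 24.4 CPM in CD4 and 28.1 to 38.3 CPM in lymphoma (log2 fold change 0.98, SE 0.25, edgeR adjusted p 0.00641).

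The kinase cascade was divided. Of 12 kinases and scaffolds, 4 rose (among them Mapk3, Rps6ka3 and Ptpn7) and 4 fell (Araf, Braf, Shoc2 and Map2k1), with a median of 0.17. Mapk3, which encodes an ERK kinase, rose by 0.58 (SE 0.19, edgeR adjusted p 0.0270). Map2k1, which encodes MEK1, fell by 1.28 (SE 0.21, edgeR adjusted p 0.000415) on the log2 scale. Ptpn7, a tyrosine phosphatase of blood cells that binds ERK, showed the largest rise of this list at 1.07 (SE 0.18, edgeR adjusted p 0.000501), from 174 to 245 CPM in CD4 to 350 to 557 CPM in lymphoma. The call of Mapk3 was lost in 5 of 20 alternatives, among them those without CD4 2 (0.48) and without CD4 3 (0.60), and that of Rps6ka3 in 17 of 20 alternatives. Of the 12 JNK and p38 kinase genes, which belong to the other branches on which Dusp1 and Dusp10 act, 11 were tested, and only Mapkapk2 changed, rising by 0.96 (SE 0.17, edgeR adjusted p 0.000585). The median of that list was 0.06.

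Of 14 ERK-induced transcripts, 12 were tested, 7 fell (Egr1, Fos, Fosb, Fosl2, Junb, Ier2 and Ier3) and 2 rose (Etv5 and Phlda1), with a median of -1.72. Fos, a subunit of the AP-1 transcription factor, had 0.0728 to 2.92 CPM in lymphoma and 22.7, 50.2 and 169 CPM in CD4 1, 2 and 3 (log2 fold change -5.87, SE 0.74, edgeR adjusted p 0.000134). The change of Fos was -4.70 without CD4 3. Etv5, an ETS factor that often follows Sprouty genes in ERK readouts, ranged from 0.365 CPM in lymphoma 53 to 13.4 CPM in lymphoma 56 beside 0.191 to 1.38 CPM in CD4 (log2 fold change 2.88, SE 1.01, edgeR adjusted p 0.0356), and its call was lost in 7 of 19 alternatives. Phlda1 rose by 1.76 (SE 0.59, edgeR adjusted p 0.0319) and was highest in lymphomas 70 and 72, at 114 and 116 CPM, and its call was lost in 6 of 20 alternatives, among them limma voom and those without CD4 1 and without CD4 2. Without CD4 3 the log2 fold change of Egr1 went from -1.01 to -0.48 (edgeR adjusted p 0.328), that of Fosl2 from -1.73 to -1.35 (edgeR adjusted p 0.0898) and that of Etv5 from 2.88 to 3.47 (edgeR adjusted p 0.0593).

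**Figure D5:**
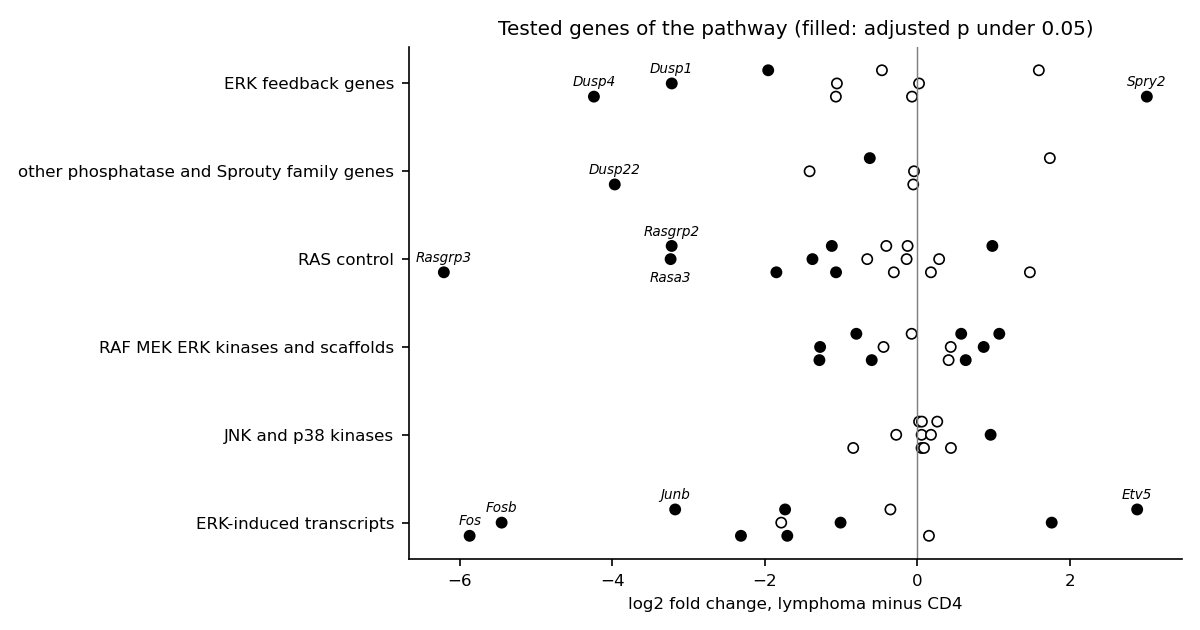
Log2 fold change, lymphoma minus CD4, of the tested genes of each list (1 point per gene, spread vertically for legibility), filled where the adjusted p was under 0.05. Spry2 and Etv5 lie at the right, and Dusp4, Dusp1, Fos and Rasgrp3 at the left of their lists, and Mapkapk2 is the filled point of the JNK and p38 kinases.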

How the data were processed

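The deposited table holds raw read counts per gene and library, per the file headers. FastQC, HISAT2, SAMtools and HTSeq, with builds mm10 and GRCm38, are named in the submitters' processing notes, while versions, annotation, strand setting and filters are not given in the sources used here. Its 5 closing rows name no gene and entered neither depth nor test, which left 38.7 to 49.1% of the reads in lymphoma and 27.8 to 35.0% in CD4. A symbol on several rows (Rasgrp2, Ctla4 and Icos) was read from the row with the most counts.

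Tests used edgeR 4.0.16 under R 4.3.3 (filterByExpr with a minimum count of 10, TMM scaling, robust glmQLFit, glmQLFTest, no covariate, all 9 libraries). SE is the absolute log2 fold change over the square root of F. CPM is per 1000000 of TMM-scaled gene counts, and 2 was the prior count for log2 CPM. Since 1 read marks a 3′ end and lengths were not used, levels were not tested between genes. Where a gene is called highest or most abundant, or is said to weigh most in a sum, this refers to CPM alone. A floor of 3 counts covers counting error only. Gene coordinates are from GENCODE M21 (GRCm38). Alternatives used DESeq2 1.42.0, limma 3.58.1, other scalings and filters, and libraries left out. The named genes are the 10 members, the called list genes, with the largest rise and fall of each list in full, and the 3 genes most like the most abundant member. Members and lists were chosen with earlier results of these data known. The values of 1 gene of the kinase list are not reported here.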

Additional observations from a re-analysis of the deposited data

Results flagged for a closer look

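For each of the 10 genes, the distance of the extreme lymphoma from the next one was taken as a share of the range over the 6 lymphomas. It passed 0.625, the 95% limit of Dixon's test, for 2 genes. The nominal rate of that limit is 0.5 of 10, which assumes independent, normally distributed values. CPM may not meet this, and lymphoma 53 was the lowest lymphoma for 33.3% of all tested genes. The share of all tested genes that pass the limit was not computed, so the 2 are a description only. Spred1 stood at 23.6 CPM in lymphoma 72, and the next lymphoma had 9.41 CPM (gap over range 0.631). Spred2 stood at 1.37 CPM in lymphoma 53, and the next lymphoma had 10.995 CPM (gap over range 0.664).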

How the results depend on the processing

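No paired analysis was possible because the replicate numbers of the groups do not overlap. Over 20 alternatives the number of members that changed stayed between 3 and 5. The number higher was 2 instead of 1 with DESeq2 and with lymphoma 53 and CD4 3 both left out (chosen after seeing the data). With both left out the number lower was 1 instead of 3. Leaving out 1 library gave 1 to 2 higher and 2 to 3 lower. The share of all tested genes called was 46.6% in the main fit, 37.2% without CD4 3 and 53.6% without lymphoma 53. It is not given here for the other alternatives, so these counts are a description only. Dusp1 and Spry2 passed in all 20 alternatives, with log2 fold changes of -3.65 to -1.75 and 2.601 to 3.70. The changed genes of the other pathway lists numbered 28, and 17 at an adjusted p under 0.01 from edgeR. The share of all tested genes under that stricter limit is not given here, so the drop is not read as particular to the lists. Among the members, signs turned for 3 genes, Spred2, Dusp2 and Dusp5, none of which passed in any alternative. Spred2 stood at -0.037 with RLE scaling, -0.069 with upper quartile, -0.010 with library size alone, -0.037 with DESeq2, -0.14 with limma voom, -0.036 with at least 10 counts in every library and -0.098 with lymphomas 34, 70 and 72 summed, and at -0.22 to 0.36 when 1 library was left out. Dusp2 stood at 0.030 with those 3 summed, 0.013 without lymphoma 53 and CD4 3, and -0.19 to 0.033 when 1 library was left out. Dusp5 stood at 0.22 without both and at -1.45 to 0.40 when 1 was left out. The causes were not tested. Upper quartile scaling moved the median of all genes by -0.10 and the unfiltered table by 0.16. Dusp4 and Spry1 had too few counts to be fitted under the filter of 10 counts in every library. At these depths 3 counts were 0.184 to 0.360 CPM, which limits Dusp4 in lymphoma.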

Other observations

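The member with the highest mean level in both groups was Dusp2. Among 9416 other genes with an average log2 CPM of at least 3, those whose log2 CPM over the 9 libraries was most like it were Pak1ip1 (r = 0.929), Srpr (r = 0.924) and Flcn (r = 0.913). With so many genes and 9 libraries such values are a description only.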
